A study of Mus musculus with 8 samples.

Results

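The carbonic anhydrases are a family of zinc enzymes, and 10 of its members (*Car2*, *Car3*, *Car4*, *Car5b*, *Car6*, *Car8*, *Car9*, *Car12*, *Car13* and *Car14*) were followed here among the 39089 genes of the RNA-seq tables. They were found by symbol in the per-sample tables, and all 10 had a row. The family was selected on *Car12*, whose rise in *Arid1a* KO tumors given vehicle had been seen in these same samples, so that contrast is described for every member without a test. Myc-CaP, a mouse prostate cancer cell line driven by *Myc*, carried a control vector without a guide (WT) or a CRISPR guide against *Arid1a* (*Arid1a* KO), and was grown under the skin of male FVB mice that were 6 weeks old. From day 16 the hosts received JSH-23, a small molecule that blocks the nuclear entry of the NF-κB subunit p65, by gavage every day for 2 weeks, and the vehicle groups received corn oil. EpCAM+ CD45- cells were then sorted and sequenced, which gave 4 groups of 2 samples: WT with vehicle, *Arid1a* KO with vehicle, WT with JSH-23 and *Arid1a* KO with JSH-23. The hosts were immunocompetent, all cells came from a single parental line, and the labels do not say whether the *Arid1a* KO cells were a clone or a pool. Groups are called vehicle WT, vehicle KO, JSH-23 WT and JSH-23 KO below.

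Carbonic anhydrases interconvert carbon dioxide and water with bicarbonate and protons, and so link respiration, acid export and ion transport. The isoforms differ mainly in where they sit. *Car2*, *Car3* and *Car13* encode cytosolic enzymes, *Car5b* a mitochondrial enzyme that supplies bicarbonate to biosynthesis, *Car6* the secreted enzyme of saliva, *Car4* an enzyme tethered to the outer membrane by a lipid anchor, and *Car9*, *Car12* and *Car14* transmembrane enzymes whose active site faces the outside of the cell. *Car8* encodes a protein of the same fold that has lost the catalytic activity and binds an inositol trisphosphate receptor. *Car9* is a classical target of the hypoxia-inducible factors, and *Car9* and *Car12* are the isoforms best known in solid tumors, where they hydrate carbon dioxide at the surface of cells that export acid.

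Total counts ranged from 16401581 to 21972231 per sample, and the 10 members together took between 0.00584% and 0.00706% of them. At these depths 3 counts, taken as the lowest level that can be told from 0, corresponded to 0.144 to 0.182 CPM, a limit that covers counting error only. CPM are counts scaled to library size after TMM normalization. *Arid1a* was lower in every *Arid1a* KO sample, at 104 against 159 CPM with vehicle and 94.9 against 150 CPM with JSH-23 (means, n = 2), so its transcript was reduced and not lost. The sorted cells did not show the transcript they were sorted for: *Epcam* had between 0 and 4 counts in every sample, and *Cldn7* between 0 and 5, whereas the keratin gene *Krt8* had between 540 and 2308. The summed level of the 5 epithelial markers, nearly all of it *Krt8*, was 33.1 to 60.9 CPM in WT and 99.3 to 113 CPM in *Arid1a* KO samples. The 5 leukocyte markers summed to 5.23 to 12.2 CPM in WT and 2.64 to 3.84 CPM in *Arid1a* KO samples, with the pan-leukocyte gene *Ptprc* at 0 to 10 counts. The erythroid markers summed to 5.28 to 8.12 CPM in WT and 9.64 to 13.6 CPM in *Arid1a* KO samples, mostly from *Hba-a1*. The 5 fibroblast markers, mostly *Pdgfra* (704 to 1265 counts), summed to 59.4 to 64.7 CPM in 6 samples and to 42.0 and 41.7 CPM in the JSH-23 KO samples. *Pdgfra* had 1090 and 1265 counts in vehicle KO and 704 and 802 counts in JSH-23 KO samples. The part of these markers in the results was not tested. In sorted bulk RNA, fewer cells that express a gene and less RNA per cell cannot be told apart.

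The mitochondrial and cell surface isoforms made up most of the carbonic anhydrase mRNA. Levels are compared between genes in TPM, which divides the counts by gene length. In vehicle WT tumors, *Car5b* stood first with 29.7 and 31.0 TPM. *Car9* followed with 13.7 and 13.3 TPM, and *Car14* with 10.5 and 9.97 TPM, without overlap between these neighbours. *Car13* had 5.47 and 3.10 TPM and overlapped with *Car3*, which had 0 TPM in replicate 1 and 4.83 TPM in replicate 2. *Car6* was at 0.546 and 0.542 TPM. *Car4*, *Car12*, *Car2* and *Car8* were at 0.273 TPM or less in both samples, and each overlapped with the next in this order.

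The order changed in vehicle KO tumors. *Car9* (17.5 and 18.1 TPM) and *Car5b* (17.8 and 16.8 TPM) overlapped at the top, *Car6* (7.56 and 9.23 TPM) overlapped with *Car14* (7.65 and 6.97 TPM), and *Car12* reached 1.23 and 0.793 TPM, above *Car2*, *Car4* and *Car8*. With JSH-23, *Car5b* was again first in both genotypes. *Car14* and *Car9* overlapped in JSH-23 WT tumors, at 8.35 to 8.70 and 7.98 to 8.72 TPM. In JSH-23 KO tumors the first 7 members, from *Car5b* through *Car9*, *Car14*, *Car13*, *Car6* and *Car3* to *Car12*, did not overlap with their neighbours. *Car5b* alone held 49.3% of the summed TPM of the members in vehicle WT tumors and 28.8% in vehicle KO tumors. The corresponding shares of *Car6* were 0.885% and 14.0%. The 4 cell surface genes together held between 33.1% of the summed TPM, in JSH-23 WT tumors, and 43.7%, in vehicle KO tumors (group means, n = 2).

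**Figure D1:**
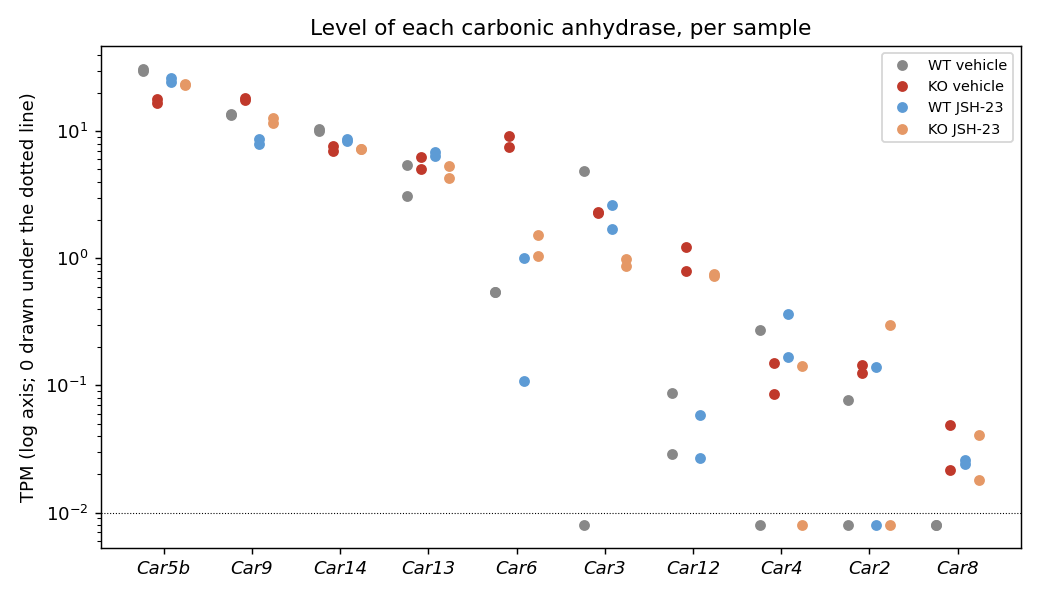
Level of each carbonic anhydrase in TPM (log axis), with a point for each of the 8 samples, coloured by group; a level of 0 is drawn under the dotted line. *Car5b*, *Car9* and *Car14* lie at 6.97 TPM or above in every sample, whereas *Car2*, *Car4* and *Car8* stay at 0.365 TPM or less.

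A total of 3 members were too low for a test. *Car2*, the fast cytosolic enzyme of erythrocytes and osteoclasts, had 0 to 5 counts per sample, and *Car1*, the other enzyme of erythrocytes, had 0 counts in all 8. *Car4* had 0 to 4 counts and *Car8* 0 to 2 counts, so a difference between groups was not detectable at this depth for any of them. The other 7 passed the filter on low counts, and *Car12* and *Car6* passed it because of the *Arid1a* KO samples, where they were high. The counts below are therefore given for each member and not as a property of those that passed.

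*Car12* encodes the transmembrane isoform first described in renal tumors and also found in normal kidney, colon and reproductive tract. It lies on the forward strand of chromosome 9 of GRCm38/mm10, from 66712296 to 66766845, and no other annotated gene of the tables overlaps it. It had 3 and 1 counts in vehicle WT tumors, 1 and 2 counts in JSH-23 WT tumors, 45 and 33 counts in vehicle KO tumors, and 33 and 36 counts in JSH-23 KO tumors. WT samples were thus at or under the level that can be told from 0, and every *Arid1a* KO sample was above every WT sample with either treatment. In CPM, the *Arid1a* KO levels were 2.49 and 1.60 with vehicle and 1.78 and 1.73 with JSH-23. With vehicle, the contrast by which *Car12* was noticed, 78 counts against 4 gave a depth-corrected ratio of 17.0 (95% exact counting interval 6.39 to 64.1).

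The JSH-23 samples do not enter that contrast, but a test of genotype in them is not independent of the choice. Their cells carry the same WT and *Arid1a* KO labels, and *Car12* passed the filter through its *Arid1a* KO counts. The fit also shares its estimate of spread over all 8 samples. *Car12* was higher in JSH-23 KO than in JSH-23 WT tumors, with 69 counts against 3, a ratio of 20.1 (95% exact counting interval 6.59 to 99.8). The adjusted p was 3.52e-08 from the edgeR quasi-likelihood fit, with Benjamini-Hochberg adjustment over 13921 genes. The fitted log2 fold change of 4.22 (SE 0.63) rests on so few WT counts that its size depends on the small count edgeR adds. Apart from leaving out a sample, it was called in the 10 other settings in which it could be fitted, with adjusted p between 5.73e-12 and 0.00151. The lowest log2 value was 0.74, on the log2(TPM + 1) scale, and leaving out a sample gave 3.78 to 4.81. With at least 10 counts in every sample *Car12* could not be fitted. All these settings reuse the same samples, so they do not make the test independent of the choice. JSH-23 against vehicle shares the vehicle samples by which *Car12* was chosen and is given without a test. In *Arid1a* KO tumors the 2 groups overlapped, with a ratio of 0.871 (95% counting interval 0.621 to 1.22), and in WT tumors 3 counts stood against 4.

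*Car9*, the hypoxia-inducible surface enzyme, lies on the forward strand of chromosome 4 from 43507026 to 43513729 and overlaps *Arhgef39* and *Tpm2* on the opposite strand. Its level was 12 and 11.6 CPM in vehicle WT tumors and 7.82 and 7.17 CPM in JSH-23 WT tumors. In *Arid1a* KO tumors it was 15.2 and 15.7 CPM with vehicle and 11.8 and 13.1 CPM with JSH-23. Every *Arid1a* KO sample with JSH-23 was above every WT sample with JSH-23, and JSH-23 samples were lower than vehicle samples in WT. With JSH-23, *Car9* was higher in *Arid1a* KO tumors by a log2 fold change of 0.74 (SE 0.12, adjusted p = 4.46e-07, edgeR). JSH-23 lowered it in WT tumors by a log2 fold change of -0.65 (SE 0.13, adjusted p = 9.58e-06, edgeR). In *Arid1a* KO tumors the log2 fold change with JSH-23 was -0.31 (SE 0.10, adjusted p = 0.00737, edgeR), which is under 1.5-fold and was not called. The difference between the genotypes in the JSH-23 effect was not tested. With vehicle the *Arid1a* KO samples were 1.31 times the WT samples, without overlap and under 1.5-fold. The call between genotypes with JSH-23 was lost in 3 of the 11 settings other than leaving out a sample. That difference was under 1.5-fold on the log2(TPM + 1) scale (0.50), where the median of all genes was -0.16. The change in WT tumors was under 1.5-fold without WT JSH-23 replicate 2 (-0.58). Over all settings the adjusted p ran from 2.51e-08 to 0.649 for the first and from 2.42e-06 to 0.801 for the second, each highest in a test against the 1.5-fold threshold itself.

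*Car6*, on the reverse strand of chromosome 4 from 150187015 to 150201135, encodes the secreted isoform. It had 5 and 5 counts in vehicle WT tumors, 10 and 1 counts in JSH-23 WT tumors, 74 and 103 counts in vehicle KO tumors, and 18 and 14 counts in JSH-23 KO tumors. The vehicle KO samples stood far above the other 6, and the ratio to WT with vehicle was 15.5 (95% exact counting interval 8.21 to 32.8). JSH-23 lowered *Car6* in *Arid1a* KO tumors, from 4.54 ± 0.637 to 0.822 ± 0.213 CPM (SD, n = 2). The log2 fold change was -2.47 (SE 0.33, adjusted p = 6.20e-10, edgeR). The remaining difference from WT with JSH-23 was a log2 fold change of 1.33 (SE 0.54, adjusted p = 0.0378, edgeR). That call was lost in 4 of the 10 settings other than leaving out a sample. DESeq2 was among these 4 (adjusted p = 0.0869), with a log2 fold change of 1.37. Without WT JSH-23 replicate 2, which had 1 count, the log2 fold change was 0.54 (adjusted p = 0.497), and over all settings the adjusted p ran from 0.00203 to 0.640. The call was also lost without KO JSH-23 replicate 1 (adjusted p = 0.204) and without KO vehicle replicate 2 (adjusted p = 0.0527).

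*Car5b*, the mitochondrial isoform on the X chromosome (reverse strand, 163976822 to 164028010, opposite *Gm38561*), had the highest counts of the family. Its level was 40.6 and 42.3 CPM in vehicle WT tumors and 24.3 and 22.8 CPM in vehicle KO tumors, a ratio of 0.566 without overlap. With JSH-23 it was 36.9 and 34.4 CPM in WT tumors and 37.6 and 37.0 CPM in *Arid1a* KO tumors. The genotypes thus stood far apart with vehicle and close together with JSH-23. JSH-23 raised *Car5b* in *Arid1a* KO tumors by a log2 fold change of 0.67 (SE 0.071, adjusted p = 5.42e-13, edgeR). In WT tumors the log2 fold change was -0.22 (SE 0.068, adjusted p = 0.00499, edgeR), under 1.5-fold and not called. Between the genotypes with JSH-23 the log2 fold change was 0.06 (95% interval -0.07 to 0.19, adjusted p = 0.480, edgeR), and the sign turned on the log2(TPM + 1) scale (-0.12) and with library size only (-0.016). The rise in *Arid1a* KO tumors fell under 1.5-fold when only library size was used for scaling (0.55) and on the log2(TPM + 1) scale (0.41). With these included, the call was lost in 4 of the 11 settings other than leaving out a sample. Over those 11 settings the adjusted p ran from 3.53e-18 to 0.219. The median of all genes in that contrast was -0.02 with TMM, -0.13 with library size and -0.20 with log2(TPM + 1).

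*Car14*, a transmembrane isoform on the reverse strand of chromosome 3 (95897768 to 95905117, opposite *Aph1a*), and *Car13*, a cytosolic one on the forward strand (14641727 to 14663002), moved less. *Car14* had 10.03 and 9.53 CPM in vehicle WT tumors, 7.29 and 6.64 CPM in vehicle KO tumors, 8.21 and 8.57 CPM in JSH-23 WT tumors, and 8.11 CPM in both JSH-23 KO samples. With vehicle its *Arid1a* KO samples were below the WT samples at a ratio of 0.710, and none of its tested contrasts was called. *Car13* had 4.99 and 2.82 CPM in vehicle WT tumors, 6.48 and 5.96 CPM in JSH-23 WT tumors, 4.59 and 5.72 CPM in vehicle KO tumors, and 4.54 and 5.76 CPM in JSH-23 KO tumors. The WT vehicle samples lay far apart, and the *Arid1a* KO samples overlapped between treatments. JSH-23 raised *Car13* in WT tumors by a log2 fold change of 0.67 (SE 0.19, adjusted p = 0.00212, edgeR). Without WT vehicle replicate 2 this was 0.32 (adjusted p = 0.214), and over all settings the adjusted p ran from 4.68e-05 to 0.843. In *Arid1a* KO tumors the log2 fold change of *Car13* with JSH-23 was 0.00 (95% interval -0.35 to 0.35).

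*Car3*, the cytosolic isoform abundant in fat and skeletal muscle, lies beside *Car13* and *Car2* on chromosome 3 (forward strand, 14863538 to 14872381, opposite *Gm41999*). It had 0 and 50 counts in vehicle WT tumors, 19 and 27 counts in JSH-23 WT tumors, 25 and 29 counts in vehicle KO tumors, and 13 and 13 counts in JSH-23 KO tumors. The WT vehicle samples were the lowest and the highest of the 8, and the JSH-23 KO samples were below all others except the sample at 0. The sample without *Car3* also had fewer counts of adipocyte genes than its replicate, with 0 against 9 for *Plin1*, 0 against 2 for *Adipoq* and 4 against 14 for *Cfd*, and 3 against 14 for the fibroblast gene *Dcn*. *Fabp4*, which carries most of the adipocyte sum, differed less, with 871 against 968 counts. The skeletal muscle markers went the other way, with 42 counts in the sample without *Car3* against 37 in its replicate. The JSH-23 KO samples, with the lowest *Car3* above 0, had the highest adipocyte sums (65.0 and 60.5 CPM) and skeletal muscle sums (3.46 and 4.46 CPM) of the 8. The adipocyte sums rested on *Fabp4*, with 1183 and 1252 counts against 776 and 1008 in vehicle KO samples. Other adipocyte genes were lower there than in vehicle KO samples, with 11 and 7 against 20 and 31 for *Cfd* and 1 and 1 against 4 and 4 for *Adipoq*. *Plin1* overlapped, with 6 and 2 against 4 and 6. The muscle sums rested mostly on *Mylpf* (44 and 67 counts) and *Tnnt3* (14 and 23). The part of these markers in the level of *Car3* was not tested. No contrast of *Car3* was called: the log2 fold change was -1.07 with JSH-23 in *Arid1a* KO tumors (adjusted p = 0.0687, edgeR) and -1.01 between genotypes with JSH-23 (adjusted p = 0.122, edgeR). Without WT vehicle replicate 1 these were -1.06 (adjusted p = 0.0181) and -1.01 (adjusted p = 0.0396) and the change with JSH-23 in WT tumors was -1.12 (adjusted p = 0.0149), and all 3 would be called. Over all settings the adjusted p ran from 0.01002 to 0.619 for the first and from 0.0380 to 1.00 for the second.

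**Figure D2:**
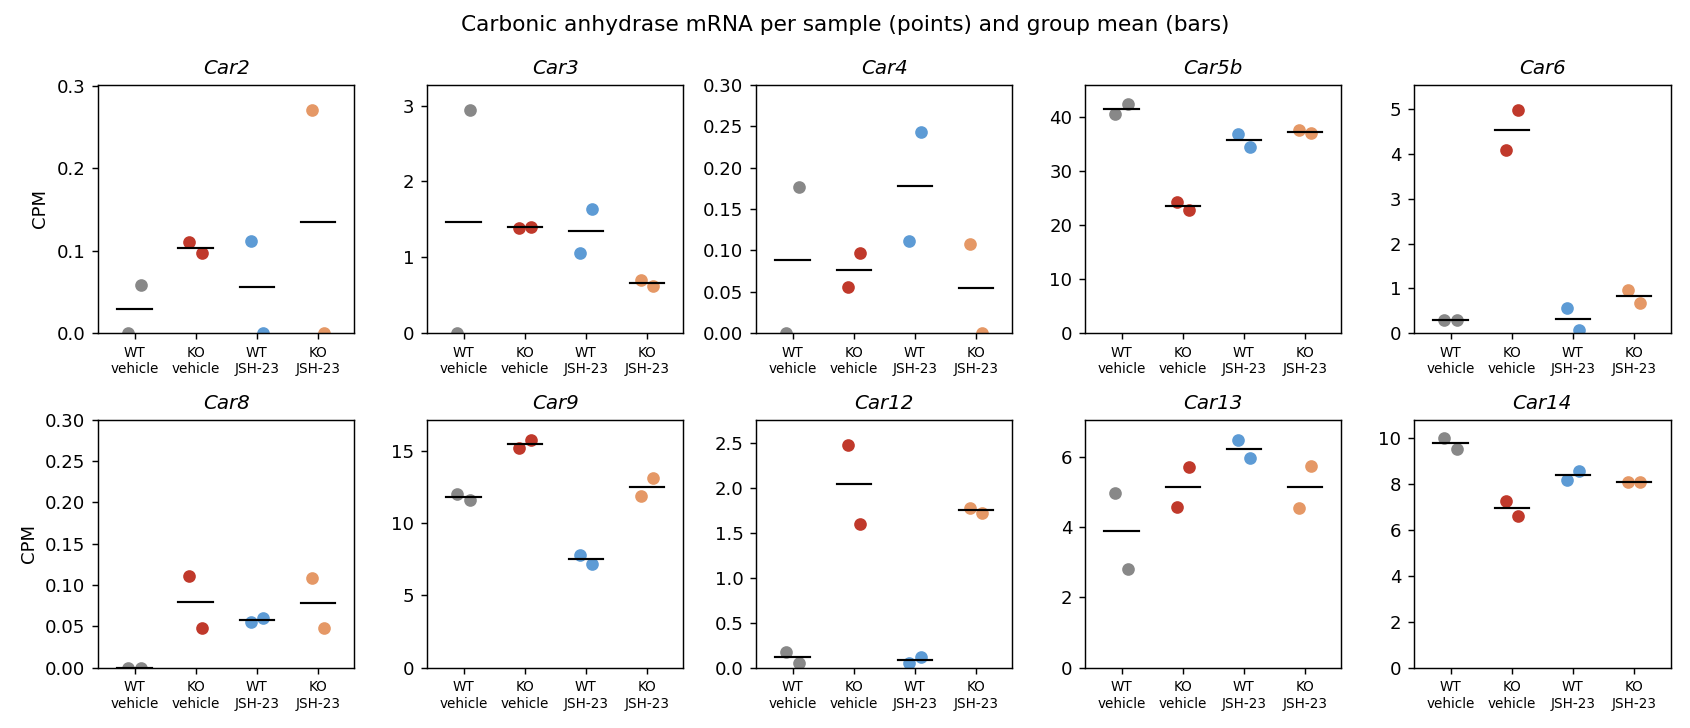
CPM of the 10 carbonic anhydrases, a panel each with its own axis from 0; points are the 2 samples of a group and bars their mean. *Car12* is near 0 in the 4 WT samples, *Car6* is high in the 2 vehicle KO samples, and *Car3* is at 0 and 2.94 CPM in the 2 vehicle WT samples.

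Counted over the family, a member was called when it changed at least 1.5-fold with an adjusted p under 0.05. Between genotypes with JSH-23, *Car12*, *Car9* and *Car6* were called higher in *Arid1a* KO tumors, and none of the 7 members tested was called lower. Among all genes tested 3.74% were called higher and 4.97% lower in that contrast. *Car12* and *Car6* entered the test through *Arid1a* KO groups where they are high, so nothing is read from the number of calls against these shares. With JSH-23 in *Arid1a* KO tumors, 1 of the 6 members tested rose (*Car5b*) and 1 fell (*Car6*), against 9.1% and 16.9% of all genes. With JSH-23 in WT tumors, *Car13* rose and *Car9* fell among the 6, against 5.55% and 10.2% of all genes. *Car12* is left out of the last 2 counts. *Car9* was lower with JSH-23 in both genotypes (-0.65 in WT and -0.31 in *Arid1a* KO tumors). In *Arid1a* KO tumors it missed the call in the edgeR fit only by the size of the fold. With DESeq2 it missed by the adjusted p as well (0.0824). As a description, the median log2 fold changes of the 6 members tested with JSH-23 were -0.15 in *Arid1a* KO tumors and -0.18 in WT tumors, against -0.02 and -0.01 over all genes.

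With vehicle, the contrast that led to the choice, members are counted by level only: at least 1.5-fold in mean CPM, with samples not overlapping and more than 3 counts in a sample. *Car12* and *Car6* were higher and *Car5b* was lower in *Arid1a* KO tumors, and the other 7 members met the rule in neither direction. Of 17011 genes above that level, 12.8% were higher and 8.05% lower by the same rule. The count of 3 became 5 without WT vehicle replicate 1, with *Car3* lower and *Car13* higher as well.

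**Figure D3:**
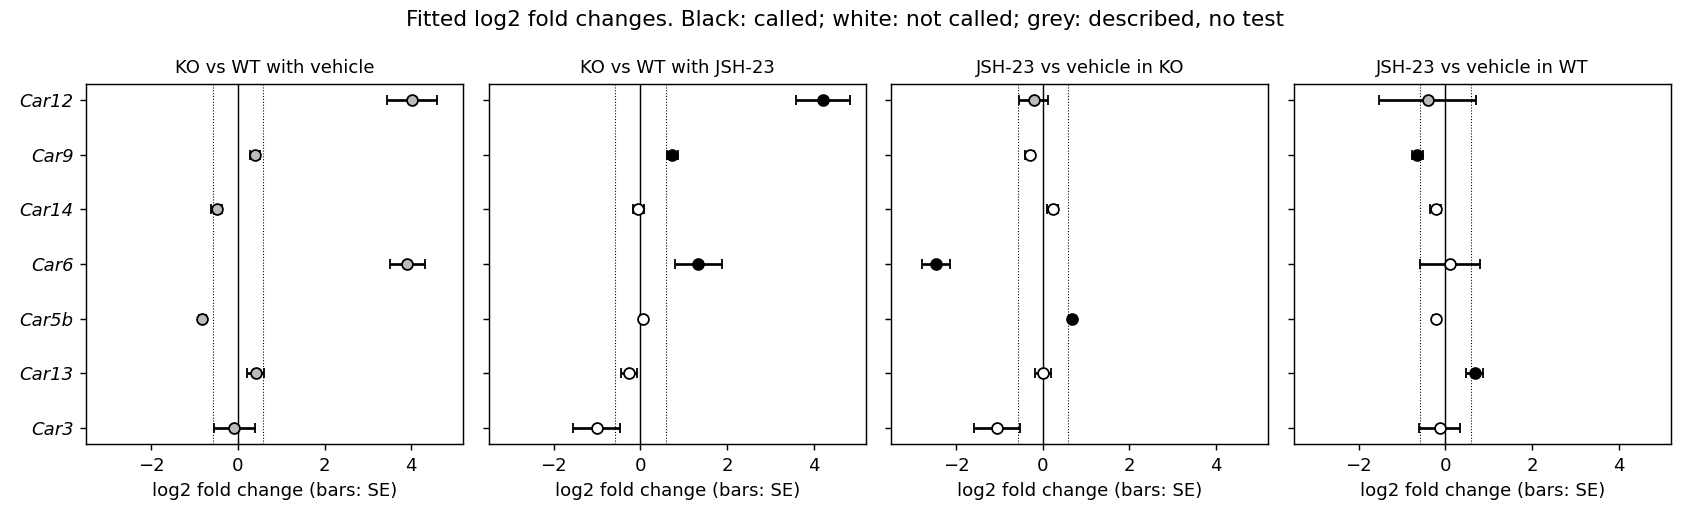
Fitted log2 fold change (x axis, bars are SE) of the 7 members that passed the filter, a panel for each contrast; black points were called, white points were not, grey points are described without a test, and dotted lines mark 1.5-fold. *Car12* is at 4.22 between genotypes with JSH-23, and *Car6* is at -2.47 with JSH-23 in *Arid1a* KO tumors.

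The promoters of the members with a call or a difference by level were read for short motifs, since JSH-23 acts on NF-κB and *Car9* is a known hypoxia target. RefSeq promoters of GRCm38.p6 were matched by symbol for 6 of the 10 members (*Car4*, *Car5b*, *Car6*, *Car9*, *Car12* and *Car14*). The 250 bases before the start are shown for *Car12* (chr9:66713436-66713685, forward strand), *Car9* (chr4:43506776-43507025, forward), *Car6* (chr4:150201136-150201385, reverse) and *Car5b* (chrX:164028011-164028260, reverse). The RefSeq start of *Car12* lies 1390 bases inside the gene as the tables delimit it, and the starts of the other 3 match the tables. Capitals mark a match on either strand to the hypoxia response core (ACGTG or GCGTG), the E-box (CACGTG, which contains ACGTG), the AP-1 site (TGANTCA) or the NF-κB κB consensus.
Car12: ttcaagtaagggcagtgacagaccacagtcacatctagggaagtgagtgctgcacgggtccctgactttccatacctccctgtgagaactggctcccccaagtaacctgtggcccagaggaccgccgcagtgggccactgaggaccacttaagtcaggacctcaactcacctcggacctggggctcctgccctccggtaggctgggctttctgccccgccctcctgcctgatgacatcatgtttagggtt
Car9: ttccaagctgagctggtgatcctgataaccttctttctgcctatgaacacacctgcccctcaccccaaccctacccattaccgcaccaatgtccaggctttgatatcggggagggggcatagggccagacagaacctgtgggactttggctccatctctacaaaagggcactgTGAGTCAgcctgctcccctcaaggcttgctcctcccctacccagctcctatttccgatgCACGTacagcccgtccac
Car6: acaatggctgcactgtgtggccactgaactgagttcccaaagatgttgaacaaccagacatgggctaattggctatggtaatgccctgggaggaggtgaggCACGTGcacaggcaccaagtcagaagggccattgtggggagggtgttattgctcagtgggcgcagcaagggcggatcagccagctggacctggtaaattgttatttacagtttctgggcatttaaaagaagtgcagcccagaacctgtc
Car5b: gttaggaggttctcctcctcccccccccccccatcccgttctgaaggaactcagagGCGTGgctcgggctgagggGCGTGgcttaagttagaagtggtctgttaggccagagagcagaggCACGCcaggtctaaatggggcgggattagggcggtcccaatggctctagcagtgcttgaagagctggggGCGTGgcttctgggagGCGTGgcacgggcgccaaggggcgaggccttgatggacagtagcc

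The hypoxia response core was found once in *Car9*, 14 to 18 bases before the start on the reverse strand, and in 5 places in *Car5b*. In *Car6* it was found as part of an E-box, 144 to 149 bases before the start, which reads the same on both strands. The AP-1 site was found in *Car9*, 71 to 77 bases before the start. None of the 4 motifs was found in the *Car12* window, and the κB consensus was found in none of the 4 sequences shown. Among the promoters not shown, *Car4* held a κB consensus 150 to 159 bases before the start. *Car14* held a hypoxia response core 3 to 7 bases before its RefSeq start, which lies 432 bases inside the gene span given above. Of 32851 promoters searched over the same length, 38.6% held the hypoxia response core, 6.02% an E-box, 6.75% an AP-1 site and 7.25% a κB consensus. A match describes letters, and binding was not measured here.

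Other genes of acid-base handling were counted from lists. Of the 6 other carbonic anhydrases in the tables, *Car7* and *Car11* passed the filter. *Car7*, a cytosolic isoform best known in neurons, had 12 and 11 counts in vehicle WT tumors, 60 and 49 counts in vehicle KO tumors, 13 and 9 counts in JSH-23 WT tumors, and 20 and 19 counts in JSH-23 KO tumors. JSH-23 lowered it in *Arid1a* KO tumors (log2 fold change -1.50, SE 0.33, adjusted p = 5.67e-05, edgeR), so *Car7*, like *Car6*, was highest in vehicle KO tumors. It was not called between genotypes with JSH-23 (0.63, adjusted p = 0.249, edgeR), and *Car11* was called in none of these contrasts.

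For the lists below, the shares of all genes called were those above: 3.74% higher and 4.97% lower between genotypes with JSH-23, 9.1% up and 16.9% down with JSH-23 in *Arid1a* KO, and 5.55% up and 10.2% down with JSH-23 in WT tumors. Among 10 proton and lactate exporters, 8 were tested. With JSH-23, 3 were higher in *Arid1a* KO than in WT tumors and none was lower. *Slc16a3*, the lactate exporter MCT4, was higher by a log2 fold change of 2.28 (adjusted p = 1.41e-10, edgeR). *Slc16a7*, the transporter MCT2, was higher by 1.17 (adjusted p = 1.48e-05, edgeR). *Bsg*, the chaperone basigin that carries MCT4 to the membrane, was higher by 0.69 (adjusted p = 3.78e-52, edgeR). JSH-23 lowered *Slc16a3* in both genotypes, by log2 fold changes of -1.29 in *Arid1a* KO and -1.42 in WT tumors. It also lowered the low-count gene *Slc16a8* in both, and raised the sodium-proton exchanger gene *Slc9a5* by 1.22 in *Arid1a* KO and 0.65 in WT tumors. Thus 1 rose and 2 fell in each genotype. *Slc16a8* passed the filter on low counts through the vehicle samples, where it is high, so nothing is read from these numbers against the shares. The list medians were 0.05 between genotypes with JSH-23, -0.01 with JSH-23 in *Arid1a* KO and 0.03 with JSH-23 in WT tumors. *Slc16a3* ran from 0.726 and 0.790 CPM in JSH-23 WT tumors to 8.95 and 9.25 CPM in vehicle KO tumors.

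Of 14 bicarbonate transporters, 8 were tested. Called lower were 1 of 8 between genotypes with JSH-23 (4.97% of all genes) and 1 of 8 with JSH-23 in *Arid1a* KO tumors (16.9%). With JSH-23 in WT tumors, where 10.2% of all genes were called lower, the largest log2 fold change of the list was that of *Slc4a2* (-0.56, adjusted p = 3.81e-16, edgeR), under 1.5-fold. *Slc26a9*, a chloride and bicarbonate transporter, was lower in JSH-23 KO tumors (-2.14, adjusted p = 0.0152, edgeR) on 5 counts against 20. It passed the filter on low counts through the WT samples, where it is high, so its call is not read against the share of all genes. *Slc4a2*, the anion exchanger AE2, fell with JSH-23 in *Arid1a* KO tumors (-0.84, adjusted p = 4.56e-25, edgeR). The medians of this list were -0.16, -0.31 and -0.08 in the same order. Of 12 hypoxia-inducible genes other than *Car9*, 11 were tested. *Adm*, which encodes the vasodilator adrenomedullin, was the 1 gene called higher in JSH-23 KO tumors (1.33, adjusted p = 1.54e-06, edgeR). JSH-23 lowered *Adm* and *Ankrd37* in both genotypes, by -1.41 and -1.12 in *Arid1a* KO and by -0.74 and -0.71 in WT tumors, and the other 9 were not called. These 2 of 11 stand against 16.9% and 10.2% of all genes called lower. The medians of the hypoxia-inducible list were 0.37, -0.27 and -0.27 in that order.

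**Figure D4:**
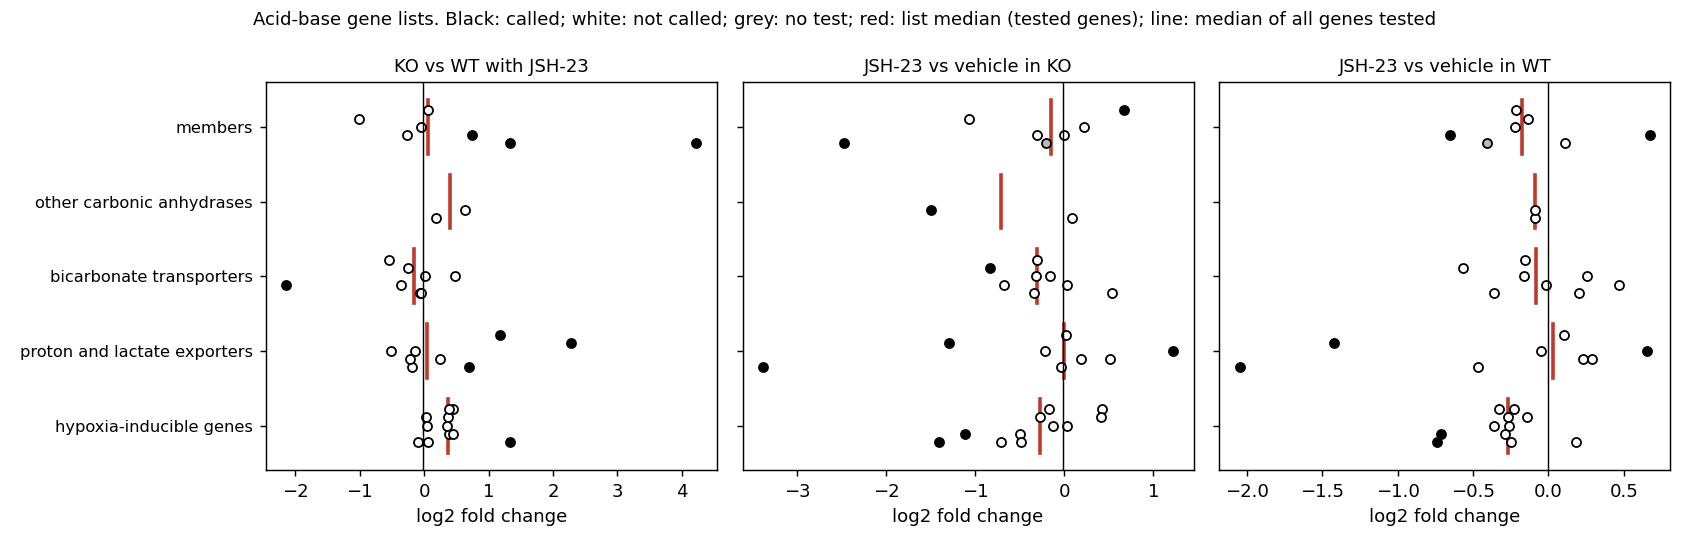
Fitted log2 fold changes of the members and of 4 acid-base gene lists in the 3 tested contrasts; each point is a gene, black if called, white if not and grey if not tested, red marks are medians of the tested genes, and the vertical line is the median of all genes. The hypoxia-inducible genes have medians of 0.37, -0.27 and -0.27 from left to right.

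The genes whose levels followed *Car12* most closely over the 8 samples were *Zbtb21*, *Ngfr*, *Mapk13*, *Snf8* and *Spint2*, out of 12241 whose mean was 1 CPM or more. Pearson's r of log2(CPM + 1) was between 0.982 and 0.987. The 8 samples form 4 groups and the likeness mostly repeats the step between genotypes, so these values are a description. *Ngfr*, the low-affinity neurotrophin receptor, had a mean of 11.2 CPM in vehicle KO against 2.22 CPM in vehicle WT samples, and of 9.40 against 2.70 CPM with JSH-23. The means of *Zbtb21* were 64.7 against 52.4 CPM with vehicle and 63.1 against 49.6 CPM with JSH-23.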

How the data were processed

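RNA of sorted tumor cells was sequenced in 8 samples, grouped by the genotype and treatment given in the labels. The authors deposited whole-number counts per gene, not normalized. The paper's methods name alignment with TopHat2 to GRCm38/mm10, keeping the best match, and strand-specific counting with HTSeq-count, whereas the submitters' processing notes name HISAT2, HTSeq, DESeq2 and mm10. The authors also deposited TPM, in which counts are corrected for gene length and each sample sums to the same total, a step not given in the sources used here. *Car3*, *Car5b*, *Car9* and *Car14* overlap genes on the opposite strand, so their counts rest on the strand setting. A series-wide TPM table that repeats these values was not used.

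Counts were filtered with filterByExpr (minimum count 10), which left 13921 of 39089 genes, scaled by TMM and fitted over 8 samples with a mean per group by edgeR 4.0.16 quasi-likelihood (R 4.3.3). A call required a 1.5-fold change and a Benjamini-Hochberg adjusted p under 0.05. The common biological coefficient of variation was 1.61%. Counts of the 2 replicates of a group differed beyond sampling noise (chi-square per degree of freedom 1.46 to 1.57), so each was kept as a sample. How tumors were assigned to samples is not stated, so p-values measure only the spread between these samples, which may be technical. Ratios of few counts carry 95% exact intervals for counting error only. Alternatives were DESeq2 1.42.0, limma 3.58.1 on log2(TPM + 1) and log2(TPM + 0.1), other filters, scaling, spread and thresholds, a replicate block, and leaving out each sample. The scripts were tested on simulated data. The members and lists were chosen with earlier results of these data known. Named were all members, list genes called in a contrast (at most 4 of each list, by fold), the 5 genes most like *Car12*, and *Arid1a*; an item of the marker lists is not reported here.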

Additional observations from a re-analysis of the deposited data

Results flagged for a closer look

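*Car5b* and *Car14* moved in opposite directions with JSH-23 in the 2 genotypes, with every sample of one genotype below and every sample of the other above its vehicle group. The log2 ratio of mean CPM was -0.22 in WT and 0.66 in *Arid1a* KO tumors for *Car5b*, and -0.22 in WT and 0.22 in *Arid1a* KO tumors for *Car14*. Neither change of *Car14* was called (adjusted p = 0.146 in WT and 0.136 in *Arid1a* KO tumors, edgeR), nor was that of *Car5b* in WT tumors. The difference between the genotypes was not tested for either gene. The share of all genes that meet the same rule was not computed, so nothing is read from the number of members that do. On the log2(TPM + 1) scale the value of *Car14* in *Arid1a* KO tumors was -0.015.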

How the results depend on the processing

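Of the values recomputed under another setting, 454 kept direction and side of the threshold, 20 lost a call, 13 gained one, 16 counts moved and 23 turned sign. None of the 23 was called as reported, and *Car3* without WT vehicle replicate 2 was the 1 called after the turn. The numbers of members called were 3 between genotypes with JSH-23, 2 with JSH-23 in *Arid1a* KO and 2 with JSH-23 in WT tumors. With at least 10 counts in every sample the first 2 were 1 and 1, because *Car12* and *Car6* could not be fitted. With limma on log2(TPM + 1) or log2(TPM + 0.1) all 3 were 1, and with a test against the 1.5-fold threshold they were 1, 1 and 0. Leaving out a sample gave 2 to 4, 2 to 3 and 1 to 3, with the 1 (*Car13*) reached without WT JSH-23 replicate 2, where *Car9* was at -0.58 (adjusted p = 0.000941), and 3 to 5 for the members that differed by level with vehicle. *Car3* with JSH-23 in WT tumors ran from -1.12 without WT vehicle replicate 1 to a reversed 7.64 without WT vehicle replicate 2, which sets it against a lone sample at 0. It was 0.37 and 1.65 on log2(TPM + 1) and log2(TPM + 0.1). On these scales *Car6* in WT tumors was -0.052 and -0.43, *Car14* in *Arid1a* KO tumors -0.015 and -0.017, and *Car5b* between genotypes with JSH-23 -0.12 and -0.13. With library size alone the last was -0.016. *Car13* with JSH-23 in *Arid1a* KO tumors, at 0.00 as reported, was 0.0038 with DESeq2, 0.0043 with no filter and 0.011 with only the groups compared. Leaving out a sample gave -0.17 to 0.18 for it, -2.16 to 0.91 for *Car6* and -0.31 to 0.10 for *Car7* with JSH-23 in WT tumors. With the replicate block the counts were 3, 3 and 2, the added call being *Car3* in *Arid1a* KO tumors (adjusted p = 0.0262); *Car3* in WT tumors was at 0.0087, and no other call of a member changed. Replicate numbers did not pair the samples, with correlations of deviations from -0.007 to 0.026. Over all genes, the test against 1.5-fold gave 312, 2144 and 795 calls, against 1212, 3625 and 2197. Scaling by library size alone moved the median of all genes with JSH-23 in *Arid1a* KO tumors from -0.02 to -0.13, and log2(TPM + 1) to -0.20. The share of calls that were higher moved with it, from 35.0% to 22.5% and 12.8%, and between genotypes with JSH-23 from 42.9% to 29.6% and 15.9%. With 2 samples per group, depth limits *Car2*, *Car4*, *Car8* and the WT level of *Car12*.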
